A study of Mus musculus with 6 samples.

Results

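Chemokine ligands were measured in 3 myeloid fractions sorted from mouse sublingual mucosa. The set was taken by name from the array's gene column: every noncontrol probe whose gene name begins with Ccl, Cxcl, Cx3cl or Xcl and a digit, with Pf4 and Ppbp, which are CXC chemokines under older names. This gave 38 genes of the 37006 gene names on the array. Each was represented by its brightest probe among those that passed the filter below, or among all its probes if none passed. A gene entered the test if both arrays of some fraction read well above background, the scanner software's own mark of detection, which 30 genes met and 8 did not.

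Chemokines are small secreted proteins that bind G protein-coupled receptors on leukocytes and draw those cells along a gradient. CC ligands act largely on monocytes, lymphocytes and eosinophils, ELR-bearing CXC ligands act on neutrophils, and a few ligands are made constitutively to place cells within a tissue. Macrophages and dendritic cells of a mucosa are both sources of these ligands and users of their receptors.

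The cells came from BALB/c mice, an inbred strain, whose sublingual mucosa was painted 2 times with the fluorescent hapten FITC; all 3 fractions share this treatment and none came from unpainted mice. Cells were freed from the dorsal side of the tongue by a 30 min collagenase and DNase digestion and then sorted. Fr1 is CD11c+CD206-, Fr2 is CD11c-F4/80+CD206- and Fr3 is F4/80+CD206hi, with 2 arrays each. The replicates are from independent experiments, per the series design, and the sources used here do not say how many mice went into a sort. Each fraction is a gate on surface antigens and may hold more than 1 cell type. In such bulk samples, fewer cells of a type and less RNA per cell cannot be told apart.

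The antigen that defines Fr3, the mannose receptor gene Mrc1 (CD206), stood at −4.09 and −3.50 in Fr1, 0.64 and 0.33 in Fr2 and 3.78 and 2.67 in Fr3, as log2 signal relative to the array's 75th percentile, the scale of every level below. Fr3 was the highest, as gated. Fr2, gated as lacking CD206, was well above background on both arrays and at least 6.72-fold above Fr1 (adjusted p = 0.239, limma; such bounds are explained at Cxcl13), so at the transcript level Fr2 did not match its CD206- gate. Itgax (CD11c) was 2.71 and 2.35 in Fr1, 2.77 and 1.20 in Fr2 and 0.20 and 0.95 in Fr3, so its transcript did not separate Fr1 from Fr2, although Fr2 was gated as lacking the protein. Between 44.6% and 52.4% of noncontrol spots per array were well above background and 0 spots were saturated. Both arrays of Fr1 and of Fr3 were on slide 1 and those of Fr2 on slide 2, so for Fr2 the fraction and the slide cannot be told apart, whereas Fr1 and Fr3 were compared within a slide. Replicate arrays correlated with Pearson r of 0.88 in Fr1, 0.90 in Fr2 and 0.80 in Fr3 across the 20817 genes tested, which are not independent replicates.

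More of the chemokine ligand genes were detected than of genes in general. On both Fr1 arrays 23 of the 38 genes (60.5%) were well above background, on both Fr2 arrays 28 (73.7%) and on both Fr3 arrays 26 (68.4%), against 44.6%, 50.5% and 46.2% of all gene names. Of the 30 tested genes, 15 had their highest mean in Fr3, 13 in Fr1 and 2 in Fr2, where 35.8%, 32.3% and 31.9% of all genes tested had theirs. The 2 highest in Fr2 were Cxcl3 and Cx3cl1, which passed the filter through Fr2 alone. The 8 genes that did not enter the test were Ccl19, Ccl26, Cxcl15 and Cxcl17, well above background on 0 arrays, Ccl1 and Xcl1 on 1 array each, Ccl21a on 2 arrays and Cxcl9 on 3. Ccl21a and Ccl27a have near-identical copies in the mouse genome, so their signals may hold more than 1 gene.

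**Figure D1:**
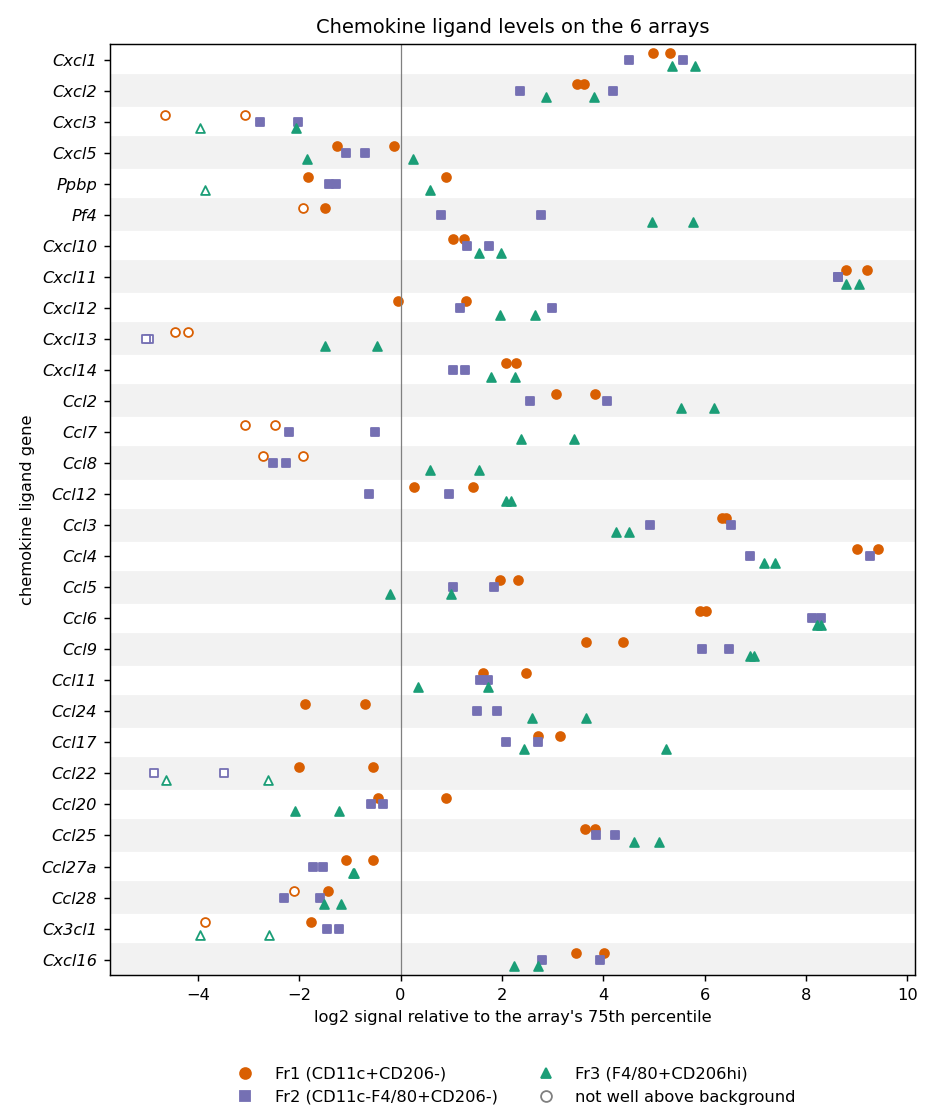
The level of each of the 30 tested chemokine ligand genes on each of the 6 arrays, as log2 signal relative to the array's 75th percentile, with 1 point per array, ordered by role from neutrophil attractants at the top to transmembrane ligands at the bottom. Filled points were well above background and open points were not; Pf4, Ccl7, Ccl8, Ccl24 and Cxcl13 have their Fr3 points to the right of all others, while the levels of different genes come from different probes and are not compared.

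With 2 arrays a fraction no chemokine ligand passed the adjusted threshold in any comparison by limma, which tested all 20817 genes together with Benjamini-Hochberg adjustment and called 0 genes between Fr1 and Fr2 (0% of genes), 1 between Fr1 and Fr3 (0.0048%) and 1 between Fr2 and Fr3 (0.0048%) at an adjusted p under 0.05. Differences are therefore described at an unadjusted p under 0.05. Between Fr1 and Fr3, 8 of the 30 genes (26.7%) were higher in Fr3 at that level, against 5.34% of all genes, and 4 (13.3%) were higher in Fr1, against 2.78%. Between Fr2 and Fr3, 6 genes (20%) were higher in Fr3, against 4.08% of all genes, and 0 in Fr2, against 4.83%. Between Fr1 and Fr2, 4 genes (13.3%) were higher in Fr2, against 6.46%, and 1 (3.33%) in Fr1, against 3.33%, so the share on the Fr1 side was that of all genes. Among the genes counted, Cxcl13 and Ccl22 passed the filter only through the fraction where they were high and so had to differ. Cxcl13 is in both counts of genes higher in Fr3 and Ccl22 in both counts of genes higher in Fr1. Cxcl3 and Cx3cl1 passed the filter through Fr2 alone and are in none of these counts. Without a filter, over all 38 chemokine ligands, 8 (21.1%) were higher in Fr3 than in Fr1, against 3.90% of all 37006 genes, and 4 (10.5%) in Fr1, against 2.38%; 7 (18.4%) were higher in Fr3 than in Fr2, against 4.16%. The comparisons share their arrays, so that a gene high in Fr3 is counted in both comparisons with Fr3. Within slide 1 alone, in a fit of the 4 Fr1 and Fr3 arrays, 8 genes (26.7%) were again higher in Fr3, against 5.07% of all genes. In that fit 4 (13.3%) were higher in Fr1, against 2.27%, and 11 of the 12 were the same genes.

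These counts rest on the arrays and the background correction used. Without Fr3 replicate 1, with the lone Fr3 array assumed to vary like the other fractions, limma called 1476 genes between Fr1 and Fr3 and 988 between Fr2 and Fr3. In that setting 2 chemokine ligands (6.67%) were higher in Fr1 than in Fr3 at an unadjusted p under 0.05, against 12.0% of all genes, so the share on the Fr1 side went from above the background to below it; 9 (30%) were higher in Fr3, against 5.75%. Without either Fr1 array 1 chemokine ligand (3.33%) was higher in Fr1 than in Fr3, against 1.98% and 2.08% of all genes. Without Fr3 replicate 1, Pf4, Ccl7 and Ccl24 were among those higher in Fr3 than in Fr1, with adjusted p = 0.0142, 0.0177 and 0.0290, and Cxcl13, which entered the test only through Fr3, among those higher in Fr3 than in Fr2, with adjusted p = 0.0357. No other single array left out gave an adjusted call among the chemokine ligands. With normexp background correction the same number of chemokine ligands or more were at an unadjusted p under 0.05 (5, 13 and 9), but not all were the same genes. Of the 5, 12 and 6 genes of the main fit, 4, 9 and 5 stayed at that level. Those lost were Ccl22 between Fr1 and Fr2, Ccl20, Ccl22 and Cxcl13 between Fr1 and Fr3, and Cxcl13 between Fr2 and Fr3. Under normexp, between Fr1 and Fr3, 9 (30%) were higher in Fr3, against 7.03% of all genes, and 4 (13.3%) in Fr1, against 1.95%. Between Fr2 and Fr3, 8 (26.7%) were higher in Fr3, against 4.51%, and 1 (3.33%) in Fr2, against 5.26%. Between Fr1 and Fr2, 4 (13.3%) were higher in Fr2, against 8.67%, and 1 (3.33%) in Fr1, against 2.63%. Dim genes had smaller differences. Fr1 minus Fr3 was −2.26 log2 units for Ccl7, −4.42 for Pf4, −2.43 for Ccl24 and −0.95 for Ccl8, all at an unadjusted p under 0.05. Under normexp the genes at that level that were higher in Fr1 made up 23.3% against Fr2 and 21.7% against Fr3, where they had made up 34.1% and 34.3%.

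**Figure D2:**
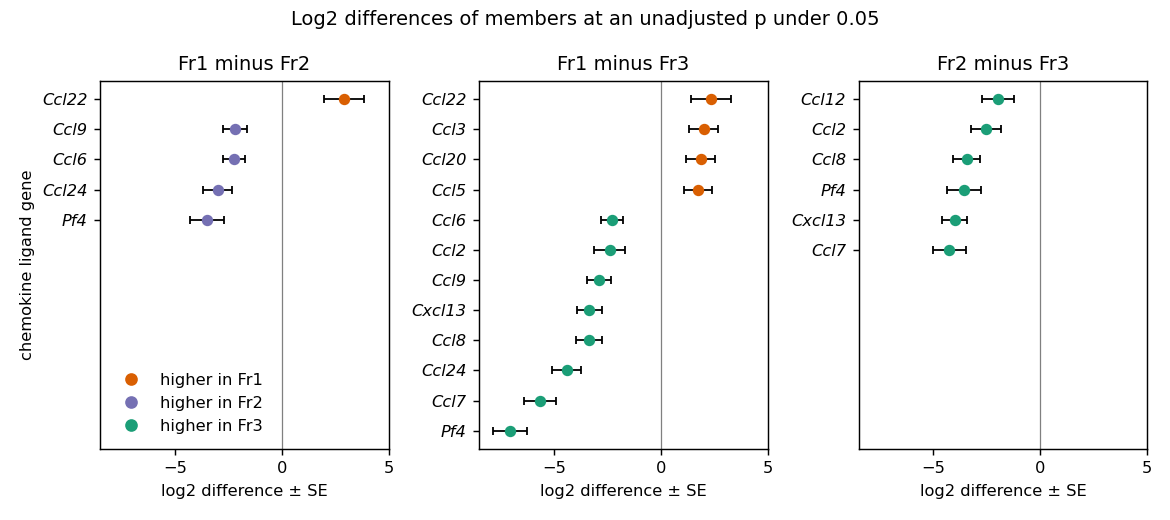
Log2 differences between fractions with their limma standard errors, for the chemokine ligand genes at an unadjusted p under 0.05 in each comparison (5, 12 and 6 genes), 2 arrays a fraction. Colour shows the fraction with the higher mean; the largest differences lie on the Fr3 side, led by Pf4 at −7.07 for Fr1 minus Fr3.

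Pf4, platelet factor 4, is a CXC chemokine stored in platelet granules that is also transcribed in macrophages. Its probe lies on chromosome 5 at chr5:91202275-91202334 (mm9), and no annotation of that build was used here to place it within the gene. Its levels were −1.48 and −1.93 in Fr1, 2.77 and 0.79 in Fr2, and 5.76 and 4.95 in Fr3. The 3 fractions did not overlap, and 1 of the Fr1 arrays was not well above background. Fr3 exceeded Fr1 by 7.07 ± 0.78 (SE) log2 units (adjusted p = 0.138, limma), a size that depends on the background correction, since with normexp Fr1 minus Fr3 was −4.42. It was 3.58 ± 0.78 higher in Fr3 than in Fr2 (adjusted p = 0.243) and 3.49 ± 0.78 higher in Fr2 than in Fr1 (adjusted p = 0.322). The platelet marker list, 6 of whose 11 genes were tested, did not follow this order. Its summed level was 4.45 and 4.04 in Fr1, 3.08 and 3.96 in Fr2 and 4.08 and 4.32 in Fr3, and Gp5, Gp9 and Clec1b were not well above background on any array. Single genes of the list differed from the sum: Treml1 was −0.12 and 0.48 in Fr1, −0.55 and 0.43 in Fr2 and 0.61 and 1.19 in Fr3, highest on both Fr3 arrays. Itga2b was −1.67 and 0.44, then −2.0 and −0.73, then −0.37 and 1.08, with its highest mean in Fr3, and Tubb1 was well above background on 1 Fr2 and 1 Fr3 array. The part of platelet RNA in the Pf4 levels was not tested.

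Ppbp, pro-platelet basic protein, is stored in platelets with Pf4 and is its neighbour, with its probe at chr5:91198970-91199029 (mm9). Its levels were 0.91 and −1.83 in Fr1, −1.41 and −1.27 in Fr2 and 0.58 and −3.85 in Fr3. The fractions overlapped, and the 2 Fr3 arrays lay further apart than any pair of fraction means did. It was the 1 chemokine ligand more than 8-fold lower on Fr3 replicate 2 than on replicate 1, as were 1602 of the genes tested. Because the 2 neighbours differed in this way, the 100 bases before each start site are shown from RefSeq (GRCm38.p6, plus strand), at chr5:90772335-90772434 for Pf4 and chr5:90768418-90768517 for Ppbp, with a TATA box (TATAAA) or the purine-rich PU.1 core (GAGGAA, read on either strand) in capitals.
Pf4: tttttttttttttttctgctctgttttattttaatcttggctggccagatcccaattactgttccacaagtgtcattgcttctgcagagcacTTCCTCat
Ppbp: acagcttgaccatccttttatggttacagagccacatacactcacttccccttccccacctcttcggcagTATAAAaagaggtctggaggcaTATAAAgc
The Ppbp stretch holds TATAAA at −30 and again at −8, counted from the start site, and the Pf4 stretch holds it nowhere but has the PU.1 core on the opposite strand at −8. Over 250 bases before the start, TATAAA on either strand is found in 12.4% of 32851 promoters and in 10 of the 27 chemokine ligands with a promoter in the table, and GAGGAA in 23.3% of promoters and in 9 of the 27. A match describes the letters and is not evidence of binding.

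Of the ligands of neutrophil receptors with the ELR motif, 0 of 5 tested genes reached an unadjusted p under 0.05 in any comparison by limma, where between 2.78% and 6.46% of all genes did in a single direction; with so few genes the count is near the background. Cxcl1, a main neutrophil attractant in mice, was 5.32 and 4.98 in Fr1, 5.58 and 4.51 in Fr2 and 5.81 and 5.36 in Fr3. Cxcl2 was 3.62 and 3.49, then 4.20 and 2.35, then 2.87 and 3.82. For both genes the spread within Fr2 exceeded the differences between fraction means. Cxcl5 ranged from −1.85 to 0.24 over the 6 arrays, with both extremes in Fr3. Cxcl3 was −4.65 and −3.07 in Fr1, −2.78 and −2.02 in Fr2 and −3.95 and −2.06 in Fr3, and was well above background on 0, 2 and 1 of the arrays. Both Fr2 arrays lay above both Fr1 arrays for Cxcl3 (adjusted p = 0.618, limma). Cxcl3 entered the test through Fr2 alone, so this p-value carries no weight of its own. Cxcl1, Cxcl2 and Cxcl3 share a promoter feature, shown in capitals in the 100 bases before the start (RefSeq, GRCm38.p6, plus strand, chr5:90891145-90891244, chr5:90903799-90903898 and chr5:90786001-90786100): a palindromic NF-kB motif, joined in Cxcl3 by TATAAA.
Cxcl1: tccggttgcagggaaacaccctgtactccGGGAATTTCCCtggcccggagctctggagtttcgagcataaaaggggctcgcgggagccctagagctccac
Cxcl2: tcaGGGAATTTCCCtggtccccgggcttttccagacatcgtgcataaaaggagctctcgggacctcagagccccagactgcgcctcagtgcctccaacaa
Cxcl3: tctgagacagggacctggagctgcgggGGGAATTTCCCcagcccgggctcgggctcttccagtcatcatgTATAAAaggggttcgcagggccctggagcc
The NF-kB motif was found on either strand in 3.90% of promoters over 250 bases and in 6 of the 27 chemokine ligands, the other three being Ccl9, Ccl20 and Cxcl10. Of the 12 NF-kB feedback genes tested, which are known targets of the factor, 0 reached an unadjusted p under 0.05 in any of the 3 comparisons. Between 2.78% and 6.46% of all genes did in a single direction, so with so few genes this count too is near the background.

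Cxcl10 and Cxcl11 are interferon-induced ligands of CXCR3, a receptor of activated T and NK cells. The Cxcl11 probe read 8.80 and 9.20 in Fr1, 8.64 and 8.62 in Fr2 and 8.79 and 9.04 in Fr3. All arrays lay between 8.62 and 9.20. A second kept Cxcl11 probe was dimmer, with means of 5.10 in Fr1, 4.84 in Fr2 and 4.73 in Fr3. The accession of both probes matched no RefSeq transcript. Whether this bright and even signal came from Cxcl11 transcripts was not tested. Cxcl10 was 1.25 and 1.03, then 1.30 and 1.74, then 1.54 and 1.97, again a narrow range. A dimmer Cxcl10 probe, which was also kept, gave means of −0.66 in Fr1, −3.67 in Fr2 and −1.25 in Fr3, so the probes of this gene disagree on the place of Fr2. Cxcl9, the remaining member of the group, was well above background on 3 arrays and was not tested.

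Cxcl13, the B-cell attractant that acts through CXCR5, was measurable in Fr3 alone. Its levels were −4.46 and −4.19 in Fr1, −4.97 and −5.01 in Fr2 and −0.46 and −1.50 in Fr3, and it was well above background on both Fr3 arrays and on none of the other four. It entered the test through Fr3 alone, so its p-values carry no weight of their own. The Fr3 mean was at least 3.91-fold that of Fr2 (4.01 ± 0.59 log2 units as measured, adjusted p = 0.125, limma) and at least 2.43-fold that of Fr1 (3.35 ± 0.59, adjusted p = 0.197). Such a lower bound sets the brighter fraction's mean against the dimmest signal that counted as well above background on each array of the dim fraction. With background correction by normexp, which compresses dim signals, Fr2 minus Fr3 was −0.40 log2 units and Fr1 minus Fr3 was −0.30, and neither had an unadjusted p under 0.05.

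Cxcl12, which holds leukocytes in tissues through CXCR4, was 1.29 and −0.04 in Fr1, 3.00 and 1.17 in Fr2 and 2.65 and 1.96 in Fr3. Fr1 lay below Fr3 on both arrays (adjusted p = 0.625, limma) and overlapped Fr2. Cxcl14, an epithelial and stromal ligand, was 2.08 and 2.28, then 1.27 and 1.04, then 1.79 and 2.26. Its brightest probe was lowest in Fr2, whereas its second kept probe was highest in Fr2, with means of −1.10, 0.29 and −2.76 in Fr1, Fr2 and Fr3.

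The monocyte chemoattractants were highest in Fr3. Ccl2, Ccl7 and Ccl12 bind CCR2, the receptor that brings monocytes out of the bone marrow, and Ccl8, which in mice acts through CCR8, is encoded beside them. All 4 were higher in Fr3 than in Fr2 at an unadjusted p under 0.05, against 4.08% of all genes. At that level 3 were higher in Fr3 than in Fr1, against 5.34%. The median of the 4 genes was −3.0 log2 units for Fr2 minus Fr3 and −2.89 for Fr1 minus Fr3, against −0.08 and −0.05 over all genes tested.

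Ccl7 was −2.47 and −3.06 in Fr1, −0.51 and −2.21 in Fr2 and 3.42 and 2.38 in Fr3. It was well above background on neither Fr1 array, and Fr3 did not overlap the others. The Fr3 mean was at least 35.8-fold that of Fr1 (5.67 ± 0.76 log2 units as measured, adjusted p = 0.144, limma) and 4.26 ± 0.76 log2 units above that of Fr2 (adjusted p = 0.167). Ccl8 was −2.71 and −1.92 in Fr1, −2.26 and −2.53 in Fr2 and 1.54 and 0.57 in Fr3. The Fr3 mean was at least 9.32-fold that of Fr1 (3.37 ± 0.62, adjusted p = 0.213) and 3.45 ± 0.62 log2 units above Fr2 (adjusted p = 0.167). Fr1 and Fr2 overlapped for Ccl8.

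Ccl2 was 3.06 and 3.85 in Fr1, 4.07 and 2.55 in Fr2 and 6.19 and 5.53 in Fr3. Fr3 lay above every other array, by 2.40 ± 0.72 log2 units from Fr1 (adjusted p = 0.420, limma) and 2.55 ± 0.72 from Fr2 (adjusted p = 0.357). Ccl12 was 0.26 and 1.42 in Fr1, 0.95 and −0.63 in Fr2 and 2.17 and 2.08 in Fr3. Its Fr3 arrays were also the highest 2, with a difference of 1.96 ± 0.74 from Fr2 (adjusted p = 0.521) and of 1.28 ± 0.74 from Fr1 (adjusted p = 0.632). The 2 smaller differences leaned on single arrays. The unadjusted p was above 0.05 for Ccl2 against Fr1 without Fr1 replicate 1, where the difference was −2.01 for Fr1 minus Fr3. It was above 0.05 for Ccl2 against Fr2 without Fr2 replicate 2 (−1.78 for Fr2 minus Fr3). For Ccl12 against Fr2 it was above 0.05 without Fr2 replicate 2 (−1.17), Fr3 replicate 1 (−1.92) or Fr3 replicate 2 (−2.01), and also with the replicate number as a block (−1.96), which leaves 3 of the 4 genes at that level against Fr2.

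Ccl12 and Ccl8 are neighbours whose levels were both highest in Fr3, and the 100 bases before their start sites (RefSeq, GRCm38.p6, plus strand, chr11:82101745-82101844 and chr11:82115085-82115184) each hold a single TATAAA, in capitals, at −31 and −32.
Ccl12: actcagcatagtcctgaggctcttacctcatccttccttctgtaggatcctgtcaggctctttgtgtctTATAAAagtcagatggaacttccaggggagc
Ccl8: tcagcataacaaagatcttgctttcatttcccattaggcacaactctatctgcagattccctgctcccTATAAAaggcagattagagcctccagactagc
Ccl2 and Ccl7 were not matched to a promoter. The probes of Ccl12 and Ccl8 share a run of 13 bases, the longest between any 2 of the chemokine ligand probes used, of 703 pairs compared. The first 30 bases of the 60-base probes of 4 genes that were highest in Fr3 show what was hybridised, with T in capitals.
Pf4 probe: cTggagagTTaggTaTcagcTgccTaaaTg
Ccl7 probe: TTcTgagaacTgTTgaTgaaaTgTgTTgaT
Ccl8 probe: accagaagTcTcaaaTTcTgcagccTTgaa
Cxcl13 probe: gaTTTaTTgTcTTgcaTTaaaaccagTaac
The share of T over the whole probe was 31.7% for Pf4 and Ccl7, 20% for Ccl8 and 30% for Cxcl13. It is given because the replicate arrays differed with it: in Fr3 the median of replicate 2 minus replicate 1 was −0.30 for the 8591 genes whose probe had over 30% T and 0.56 for the other 12226 genes, and among the chemokine ligands −0.45 for 14 genes and 0.17 for 16. With probes over 30% T left out, 5 of the 18 chemokine ligands still tested were at an unadjusted p under 0.05 between Fr2 and Fr3. Of the 18, 4 (22.2%) were higher in Fr3, against 6.16% of all genes, and 1 (5.56%) in Fr2, against 5.19%. Cxcl13, in the test only through Fr3, then had an adjusted p = 0.0451 (limma).

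The inflammatory CC ligands Ccl3, Ccl4, Ccl5, Ccl6 and Ccl9, which attract monocytes and T cells, split in direction between Fr1 and Fr3. Ccl6 and Ccl9, related CC ligands of CCR1 that are abundant in rodent myeloid cells, were lowest in Fr1, while Ccl3, Ccl4 and Ccl5 had their highest means there. Of the 5 genes, 2 were higher in Fr3 and 2 were higher in Fr1 at an unadjusted p under 0.05, against 5.34% and 2.78% of all genes. None differed at that level between Fr2 and Fr3.

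Ccl6 was 5.90 and 6.02 in Fr1, 8.13 and 8.29 in Fr2 and 8.21 and 8.29 in Fr3. Both Fr1 arrays lay more than 2 log2 units below the other four, and Fr2 and Fr3 overlapped. The mean was 2.25 ± 0.51 log2 units lower in Fr1 than in Fr2 (adjusted p = 0.322, limma) and 2.29 ± 0.51 lower than in Fr3 (adjusted p = 0.282). Ccl9 was 4.40 and 3.66 in Fr1, 5.95 and 6.48 in Fr2 and 6.89 and 6.97 in Fr3. Fr1 was again the lowest, by 2.19 ± 0.57 log2 units from Fr2 (adjusted p = 0.352) and 2.90 ± 0.57 from Fr3 (adjusted p = 0.236). The 2 genes are neighbours on chromosome 11, with probes at chr11:83401997-83402056 and chr11:83388223-83388282 (mm9), and the 100 bases before their starts are shown because both were lowest in Fr1 (RefSeq, GRCm38.p6, minus strand, chr11:83593088-83593187 and chr11:83578637-83578736).
Ccl6: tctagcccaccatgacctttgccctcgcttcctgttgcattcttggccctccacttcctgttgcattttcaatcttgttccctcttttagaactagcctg
Ccl9: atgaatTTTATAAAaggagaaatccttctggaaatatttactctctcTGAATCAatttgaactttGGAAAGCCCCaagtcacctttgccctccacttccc
The capitals in Ccl9 mark TATAAA on both strands, the AP-1 motif TGANTCA and an NF-kB motif, in that order; none of these, nor GAGGAA, was found in the Ccl6 stretch. The AP-1 motif was found in 6.75% of promoters over 250 bases and in 4 of the 27 chemokine ligands.

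Ccl3 and Ccl4, the macrophage inflammatory proteins 1 alpha and 1 beta, were bright on every array. Ccl3 was 6.43 and 6.33 in Fr1, 6.51 and 4.92 in Fr2 and 4.26 and 4.52 in Fr3. Ccl4 was 9.43 and 9.02, then 9.26 and 6.90, then 7.39 and 7.18. In both genes Fr2 replicate 1 lay with Fr1 and Fr2 replicate 2 lay near Fr3, so that Fr2 had no settled place. Ccl3 was 1.99 ± 0.68 log2 units higher in Fr1 than in Fr3 (adjusted p = 0.499, limma), and Ccl4 1.94 ± 0.83 higher (adjusted p = 0.618). A second kept Ccl4 probe gave the same order, with means of 9.01, 7.70 and 6.65. Ccl5, made by activated T cells and myeloid cells, was 1.96 and 2.32 in Fr1, 1.85 and 1.03 in Fr2 and −0.20 and 1.00 in Fr3. The difference of Fr1 from Fr3 was 1.74 ± 0.65 (adjusted p = 0.567). Leaving out either Fr1 array or Fr3 replicate 1 took the unadjusted p of both the Ccl3 and the Ccl5 difference above 0.05, with differences from 1.87 to 2.04 and from 1.14 to 1.92. The T and NK cell marker list summed to 4.68 and 4.50 in Fr1, 3.59 and 4.20 in Fr2 and 3.70 and 3.97 in Fr3. Of its 8 tested genes, 3 were higher in Fr1 than in Fr3 and 1 higher in Fr3 at an unadjusted p under 0.05. The shares of all genes were 2.78% and 5.34%. Gzmb, among the 3, entered the test through Fr1 alone. The part of T and NK cells in the Ccl5 levels was not tested.

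Among the eotaxins, which recruit eosinophils through CCR3, Ccl24 had its lowest levels in Fr1 and its highest in Fr3, an order that Ccl11 did not have. Ccl24 was −0.70 and −1.88 in Fr1, 1.91 and 1.51 in Fr2 and 3.67 and 2.59 in Fr3. The 3 fractions did not overlap and all 6 arrays were well above background. Fr3 exceeded Fr1 by 4.42 ± 0.68 log2 units (adjusted p = 0.147, limma), Fr2 exceeded Fr1 by 3.00 ± 0.68 (adjusted p = 0.322), and Fr3 exceeded Fr2 by 1.42 ± 0.68 (adjusted p = 0.599). Ccl11 was 2.47 and 1.64 in Fr1, 1.57 and 1.74 in Fr2 and 1.74 and 0.34 in Fr3, with overlap between all fractions. The eosinophil marker list was highest in Fr2, at 6.32 and 7.29, against 4.29 and 4.34 in Fr1 and 2.87 and 3.64 in Fr3. Its order over the fractions was thus not that of Ccl24, and its part in the Ccl24 levels was not tested.

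Ccl22, a ligand of CCR4 made by dendritic cells and macrophages, was measurable in Fr1 alone. Its levels were −2.0 and −0.55 in Fr1, −3.49 and −4.86 in Fr2 and −4.63 and −2.61 in Fr3, and only the Fr1 arrays were well above background. It entered the test through Fr1 alone, and it was the 1 chemokine ligand counted as higher in Fr1 than in Fr2. The Fr1 mean was at least 3.18-fold that of Fr2 (2.90 ± 0.93 log2 units as measured, adjusted p = 0.431, limma) and at least 2.49-fold that of Fr3 (2.35 ± 0.93, adjusted p = 0.588). Of the differences named here it lost the threshold most often. Against Fr3 its p lay above 0.05 in 7 of 13 alternatives, and against Fr2 in 3 of 13, with values between 0.34 and 3.62 log2 units. Without Fr1 replicate 2, Ccl22 (2.18) and Ccl9 (−1.82) were no longer at an unadjusted p under 0.05 between Fr1 and Fr2.

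Ccl17, the other ligand of CCR4, was 2.72 and 3.15 in Fr1, 2.71 and 2.09 in Fr2 and 2.44 and 5.23 in Fr3. The highest and the second lowest array were both from Fr3, and no comparison had a p under 0.05. Ccl22, Cx3cl1 and Ccl17 lie within 61.1 kb on chromosome 8. The probes used gave them different orders of means over the fractions, but a Cx3cl1 probe that was not kept had the order of Ccl22.

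Ccl20, the ligand of CCR6 that attracts dendritic cells and Th17 cells to epithelia, was 0.89 and −0.45 in Fr1, −0.58 and −0.34 in Fr2 and −1.21 and −2.08 in Fr3. Fr3 was lowest on both arrays, and Fr1 exceeded it by 1.86 ± 0.68 log2 units (adjusted p = 0.537, limma). The difference was 0.56 with normexp, 1.19 without Fr1 replicate 1 and 1.43 without Fr3 replicate 2, and in each case the unadjusted p was above 0.05. Ccl25, the ligand of CCR9, was 3.65 and 3.84 in Fr1, 3.85 and 4.23 in Fr2 and 4.61 and 5.10 in Fr3. Both Fr3 arrays were the highest, with adjusted p = 0.625 against Fr1 and 0.629 against Fr2. Of its 4 probes, the other three were not kept, being well above background on at most 1 array. Ccl27a and Ccl28, epithelial ligands of CCR10, were near the dim end of their ranges, from −1.72 to −0.55 and from −2.30 to −1.17 over the 6 arrays, with no p under 0.05.

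Cx3cl1 and Cxcl16 are made as transmembrane proteins and shed. Cxcl16, the ligand of CXCR6, was 3.47 and 4.02 in Fr1, 3.94 and 2.80 in Fr2 and 2.24 and 2.71 in Fr3. Fr3 was lowest on both arrays, with adjusted p = 0.625 against Fr1, and a second kept probe had the same order of means at 3.29, 2.28 and 1.51. Cx3cl1 was −1.76 and −3.86 in Fr1, −1.21 and −1.45 in Fr2 and −3.96 and −2.59 in Fr3, well above background on 1, 2 and 0 arrays. A second Cx3cl1 probe, well above background on 3 arrays but not kept, had another order. Its means were −1.38 in Fr1, −2.54 in Fr2 and −2.21 in Fr3. By the kept probe, the difference of Fr2 from Fr3 had an adjusted p = 0.574 (limma). That probe entered the test through Fr2 alone, so this p-value carries no weight of its own.

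The clustered genes were then set side by side by position, from the probes' mm9 coordinates. The first cluster on chromosome 11 (chr11:81850650-81990510) holds Ccl2, Ccl7, Ccl11, Ccl12, Ccl8 and Ccl1 within 140 kb. Its members Ccl2, Ccl7, Ccl12 and Ccl8 had their highest level in Fr3, and Ccl11, which lies between Ccl7 and Ccl12, had its lowest mean there. The second cluster (chr11:83339296-83478097) holds Ccl5, Ccl9, Ccl6, Ccl3 and Ccl4 within 139 kb. Its central pair Ccl9 and Ccl6 was lowest in Fr1, and the genes on both sides of the pair had their highest means in Fr1. The cluster on chromosome 5 (chr5:91190490-91334593) holds Cxcl5, Ppbp, Pf4, Cxcl3, Cxcl15, Cxcl1 and Cxcl2 within 144 kb. Pf4 was the only one of its 6 tested genes at an unadjusted p under 0.05 in any comparison. Some neighbours had the same order of means, namely Ccl12 and Ccl8, Ccl9 and Ccl6, and Ccl3 and Ccl4, while others, such as Ccl7 and Ccl11 or Ppbp and Pf4, did not.

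**Figure D3:**
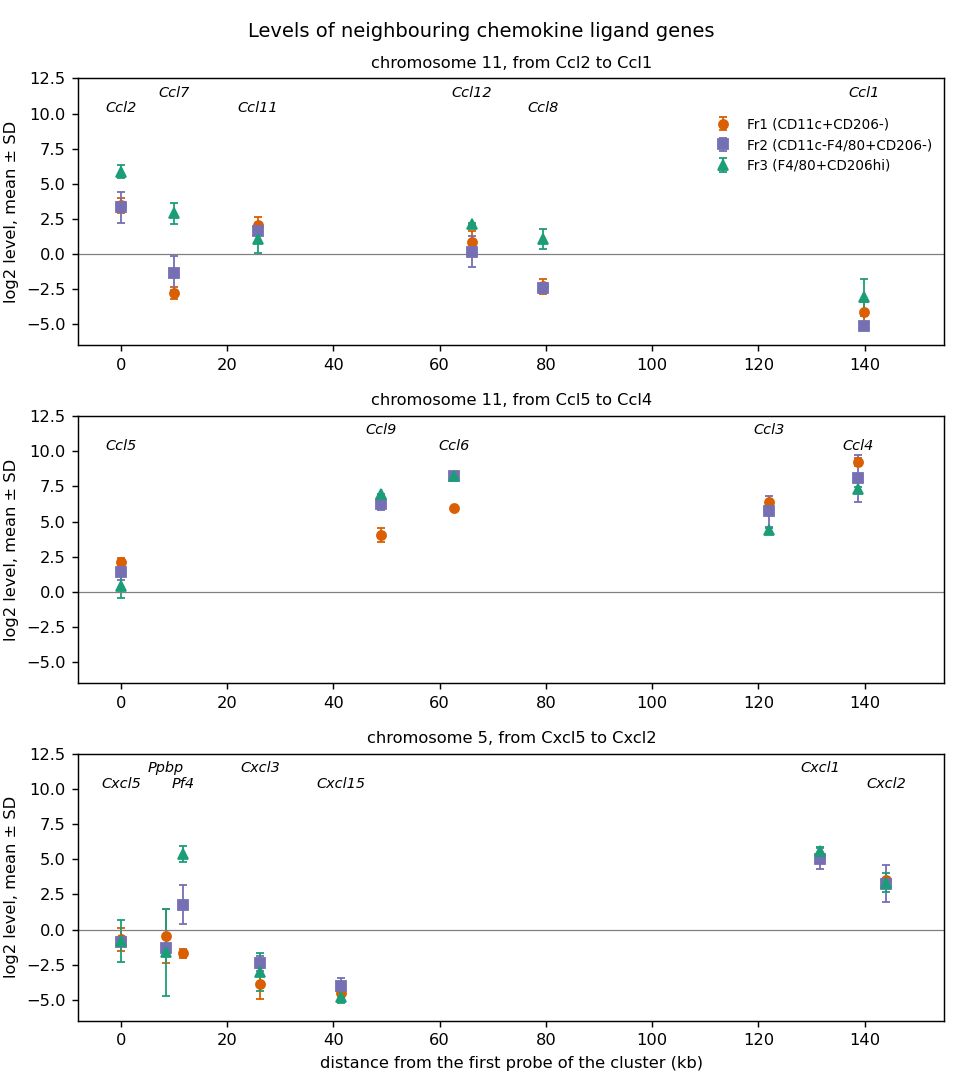
Mean level ± SD (2 arrays a fraction) of the chemokine ligand genes in the 3 largest clusters, on the log2 scale relative to the array's 75th percentile, against the distance of each probe from the first probe of its cluster in kb. Fr3 lies highest at Ccl2, Ccl7, Ccl12, Ccl8 and Pf4, and Fr1 lies lowest at Ccl9 and Ccl6; Ccl1 and Cxcl15 are drawn although they were not tested.

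The receptors gave a different picture from the ligands. Of 24 receptor genes 16 were tested, and 0 passed the adjusted threshold in any comparison. Between Fr1 and Fr3, 7 were higher in Fr1 and 0 in Fr3 at an unadjusted p under 0.05, against 2.78% and 5.34% of all genes. Between Fr2 and Fr3, 6 were higher in Fr2 and 0 in Fr3, against 4.83% and 4.08% of all genes. Between Fr1 and Fr2 there was 1 on each side, against 3.33% of all genes higher in Fr1 and 6.46% in Fr2. Ccr9, which entered the test through Fr1 alone, was the 1 on the Fr1 side and was also among the 7. Xcr1, among the 6, entered the test through Fr2 alone. The median difference of the 16 receptors was 1.72 log2 units toward Fr1 over Fr3 and 1.58 toward Fr2 over Fr3, whereas the medians of the 30 ligands were −0.43 for Fr1 minus Fr3 and −0.41 for Fr2 minus Fr3.

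Ccr9, the receptor for Ccl25, was 1.32 and 1.13 in Fr1, −4.65 and −3.60 in Fr2 and −5.21 and −3.15 in Fr3, and was well above background only in Fr1, through which alone it entered the test. The Fr1 mean was at least 18.0-fold that of Fr2 (adjusted p = 0.239, limma) and at least 14.1-fold that of Fr3 (adjusted p = 0.144). Its ligand Ccl25 had its highest levels in Fr3. Ccr3, the eotaxin receptor, was 1.09 and 1.79 in Fr1, 1.49 and 2.98 in Fr2 and −4.01 and −1.97 in Fr3. Fr3 was lowest on both arrays, by 5.23 ± 0.88 log2 units from Fr2 (adjusted p = 0.147) and 4.43 ± 0.88 from Fr1 (adjusted p = 0.238), and its ligand Ccl24 was highest in Fr3. Ccr2, the receptor for Ccl2, Ccl7 and Ccl12, was −0.06 and −0.05 in Fr1, 2.52 and 1.39 in Fr2 and 0.35 and 1.54 in Fr3, with Fr2 exceeding Fr1 by 2.01 ± 0.68 (adjusted p = 0.445). Cxcr2, the receptor of the ELR-bearing ligands, was 1.52 and 2.26, then 2.93 and 3.89, then 0.55 and −0.37, with Fr2 exceeding Fr3 by 3.32 ± 0.66 (adjusted p = 0.213). Ccr3 is also in the eosinophil marker list and Cxcr2 in the neutrophil marker list.

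Of 12 cytokine genes known to induce chemokines, 9 were tested. At an unadjusted p under 0.05, 3 were higher in Fr1 than in Fr3 and 1 in Fr3, against 2.78% and 5.34% of all genes. Between Fr1 and Fr2, 3 were higher in Fr1 and 1 in Fr2, against 3.33% and 6.46%. Between Fr2 and Fr3, 2 were higher in Fr2 and 0 in Fr3, against 4.83% and 4.08%. Ifng, among the 3 higher in Fr1 than in Fr2, entered the test through Fr1 alone. Ifnb1 is in both counts on the Fr1 side. Ifnb1, interferon beta, was −0.49 and −0.33 in Fr1 and below the detection mark on all Fr2 and Fr3 arrays, so that it too was tested only through Fr1, at least 5.79-fold and 4.52-fold higher in Fr1 (adjusted p = 0.267 and 0.144, limma). The brightest probes of the interferon-induced Cxcl10 and Cxcl11 had no difference at that level between Fr1 and either fraction. The dimmer kept Cxcl10 probe had means of −0.66 in Fr1, −3.67 in Fr2 and −1.25 in Fr3. Whether the Cxcl11 probes read Cxcl11 transcripts was not tested. Il6 was lowest in Fr1, at 0.97 and 0.37, against 3.51 and 1.75 in Fr2 and 3.14 and 3.38 in Fr3, with adjusted p = 0.469 and 0.390 against Fr1. Il1b was 7.79 and 7.57, then 8.15 and 7.64, then 5.79 and 6.34, with adjusted p = 0.401 for Fr2 against Fr3, and Csf1 was 0.74 and 0.96, then 1.69 and 1.46, then 0.06 and −0.27, with adjusted p = 0.421.

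Markers of other cells moved between the fractions as well. The neutrophil list, 11 of 12 genes tested, summed to 7.91 and 8.21 in Fr1, 9.31 and 9.36 in Fr2 and 7.13 and 7.12 in Fr3. At an unadjusted p under 0.05, 7 of its genes were higher in Fr2 than in Fr1, against 6.46% of all genes. At that level 9 were higher in Fr2 than in Fr3, against 4.83%. Ltf, which is in both counts, entered the test through Fr2 alone. The neutrophil and eosinophil lists were highest in Fr2, the fraction with the highest mean of 2 of the 30 chemokine ligands and of 31.9% of all genes tested. The epithelial list, 5 of 8 genes tested, summed to 1.46 and 1.28 in Fr1, 3.01 and 2.99 in Fr2 and 2.50 and 1.61 in Fr3, and the fibroblast list, 6 of 7, to 2.02 and 0.53, 3.01 and 1.96, and 1.77 and 1.63. The endothelial list, 4 of 8, was 3.18 and 2.41, 2.23 and 2.37, and 3.97 and 3.07, led in Fr3 by Lyve1, which tissue macrophages also express. Of the mast cell and basophil list, 1 of 7 genes was tested, between −0.14 and 2.85. The part of these cells in the chemokine levels was not tested.

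**Figure D4:**
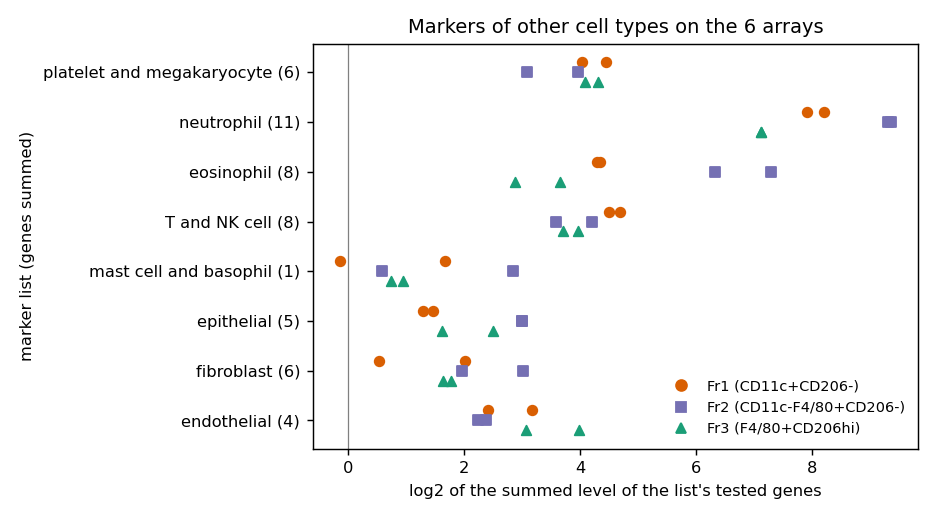
Log2 of the summed level of the tested genes of each marker list on each array, with 1 point per array and the number of genes summed in brackets. The neutrophil and eosinophil lists are highest on both Fr2 arrays. The platelet list is lowest on both Fr2 arrays and overlaps between Fr1 and Fr3.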

How the data were processed

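Per the labels' protocols, RNA of each sort was amplified with Ovation Pico WTA V2 and the cDNA labelled with Cy3. The intensity values were deposited as single-channel Agilent Feature Extraction 11.5.1.1 output, background-subtracted and detrended per the file headers, at 62976 spots per array. The value table the authors deposited is on a log2 scale, with a 75th percentile of 0 on every array and medians between −2.44 and −2.25. It matched the scanner values with r of at least 0.9999 across probes, which settles its scale, centring and direction, and served as an alternative. Coordinates are those of the files, on mm9.

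Spots of a probe were averaged, log2 intensity was taken minus each array's 75th percentile, and 27867 probes were kept because both arrays of some fraction marked them well above background; 4 were dropped for a flag. The brightest kept probe stood for its gene, which can differ from other probes of that gene. Gene names were updated through RefSeq by accession (32994 probes), symbol (10224) or synonym (520), and 12867 kept the file's name. Group means of all 6 arrays were fitted with limma 3.58.1 in R 4.3.3, with 3 residual degrees of freedom, two-sided, with Benjamini-Hochberg adjustment over 20817 genes; the script was tested on simulated data. An exact permutation test of 2 against 2 arrays cannot go below p = 0.333 and was not used. The number of arrays limits the precision.

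The members and lists were chosen with earlier results of these data known. Differences were named for every tested member at an unadjusted p under 0.05; other p-values were picked after the values were seen. Promoters are from RefSeq (GRCm38.p6), matched by symbol for 27 of 38 genes. Alternatives were quantile normalization, normexp, the authors' table, other filters, probe averaging, leaving out probes over 30% T, the replicate block, the 4 arrays compared, and each array left out.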

Additional observations from a re-analysis of the deposited data

How the results depend on the processing

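Of 325 alternative values of the named differences, 297 kept their direction and their side of an unadjusted p of 0.05, 28 kept only the direction, and 0 reversed. Most alternatives could not change a direction. The filters, the limit on T, probe averaging, the replicate block, the 4 arrays compared and leaving out an array of the third fraction change only the p of these differences. The authors' table holds nearly the same values. The count of 0 reversed was thus largely fixed in advance. Of 90 alternative counts, 60 stayed within 1.5 times. Chemokine ligands at an unadjusted p under 0.05 numbered 5 between Fr1 and Fr2. Among probes well above background on all arrays, 21 were tested. There 3 (14.3%) were higher in Fr2 than in Fr1, against 6.97% of all genes, and 0 in Fr1, against 3.71%. Between Fr2 and Fr3, 3 (14.3%) in place of 6 were higher in Fr3, against 4.48%, and 0 in Fr2, against 4.92%. The same-numbered arrays of 2 fractions deviated together with r of 0.12, 0.43 and 0.05. Nothing in the labels ties the numbers to a shared day, so the numbers were not taken to pair them. With a replicate block, 8 chemokine ligands passed an unadjusted p of 0.05 between Fr1 and Fr2. Of the 30 tested, 7 (23.3%) were higher in Fr2, against 8.33% of all genes, and 1 (3.33%) in Fr1, against 4.91%. In that fit 0 genes were called at an adjusted p under 0.05 between Fr1 and Fr3 and 0 between Fr2 and Fr3. Over all genes the adjusted calls were 0, 1 and 1, and moved to 3 (Fr1 and Fr3) and 14 (Fr2 and Fr3) with normexp, to 0 (Fr1 and Fr3) with no filter, to 9 (Fr2 and Fr3) among probes well above background on all arrays, to 3, 12 and 56 with probes over 30% T left out, and to 13, 0 and 0 with only the 4 arrays compared. Leaving out arrays gave 0 to 13, 0 to 1476 and 0 to 988, the highest for both comparisons with Fr3 without Fr3 replicate 1; the cause was not tested. Signal over background limits Cxcl13, Ccl22, Ccl7 and Ccl8, whose dim fractions give only a bound, and Cxcl3 and Cx3cl1, which some fractions did not measure.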
